A study of Cavia porcellus with 27 samples.

Results

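On scaffold_4 of the guinea pig genome, 1042 CpGs that the authors called different between newborns of betamethasone-treated and saline-treated mothers lay in a single stretch from position 43966052 to 44592889, a span of 626.8 kb. The members were chosen by the authors' calls and by how densely these lie: every listed CpG between these positions belongs to it, and neighbouring members are less than 100000 bp apart. Each listed position is counted as a CpG; 161 pairs of them lie 1 bp apart, and merging each pair leaves 881 units, so cluster sizes and neighbour counts below can include both positions of a pair. The block held 22.5% of the 4622 CpGs in the newborn table and 75.6% of the 1379 on scaffold_4. Its members were therefore chosen on the same contrast that their differences measure, and those differences were not tested. The nearest listed CpG below the block was 220.2 kb away, at 43745840 (72.0% after saline and 62% after betamethasone), and the first CpG inside it, at 43966052, stood at 88.2% and 92.6%. The last CpG, at 44592889 (94.9% and 83.3%), was the last listed on the scaffold.

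The newborn groups were female guinea pigs (Cavia porcellus) sampled on postnatal day (PND) 1, with 7 animals whose mothers had received betamethasone and 7 whose mothers had received saline, on gestational day 50/51. A juvenile cohort from PND14 had 6 betamethasone and 7 saline animals. The labels used here name no strain and no dose. DNA came from prefrontal cortex, a tissue that mixes neurons, glia and vascular cells, and methylation was read by reduced representation bisulfite sequencing (RRBS), which covers short, CpG-rich fragments next to a restriction site. Each table gives 1 coverage and 1 methylated read count per CpG and treatment. Both were taken to be totals across the group's animals, and the table's case to be betamethasone. No header says so, and with case as saline all directions below would be the opposite. Values per animal were not analysed here, and the spread among animals is therefore missing from all that follows. The sources used here do not name the build behind the scaffold numbers; positions are printed as deposited and no gene or promoter is assigned to them.

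Cytosines in CpG pairs carry most DNA methylation in mammals. Most CpGs of the genome are highly methylated, while dense groups of CpGs at many gene starts, the CpG islands, stay nearly free of it, with intermediate levels in the flanks. Betamethasone is a synthetic glucocorticoid given to speed maturation of the fetal lung. It acts through the glucocorticoid receptor, a transcription factor that is expressed in the brain as well.

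The block was not evenly filled. Its CpGs fell into 108 clusters, a cluster being listed CpGs less than 1000 bp apart, with a median of 6 CpGs each; 5 clusters were single CpGs. Together the clusters covered 59347 bp of the span, and the median distance between adjacent listed CpGs was 21 bp. Gaps of at least 10000 bp split the block into 13 stretches. The first, from 43966052 to 44036671, held 168 CpGs, the fourth, from 44150629 to 44245679, held 290, and the last, from 44542002 to 44592889, held 147. Between 44294777 and 44357387 there was a gap of 62610 bp, the widest in the block, and around it the calls were sparse. The 5 most populated clusters held 289 CpGs, 27.7% of the block; the last place among them was a tie of 2 clusters with 27 CpGs, at 44174203 and 44467038, of which the former is counted here.

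Most of the block was highly methylated in both treatments. A methylation level here is methylated reads as a percentage of summed reads. The mean over the 1042 CpGs was 69.3% after saline and 68.9% after betamethasone, and the median of the 2 treatments' average was 83.2%. Levels above 80% were found at 576 CpGs (55.3%), levels between 20% and 80% at 323 (31%), and levels below 20% at 143 (13.7%). Averaged over a cluster, the level was above 80% in 69 clusters, intermediate in 36 and below 20% in 3. The level differed along the span, as the plot of levels by distance shows. Of the 13 stretches, the fourth (95.1 kb) had 46.6% of its CpGs above 80%, and those at 44392987 to 44420166 and 44442419 to 44468547 had 19.1% and 19.2%.

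**Figure D1:**
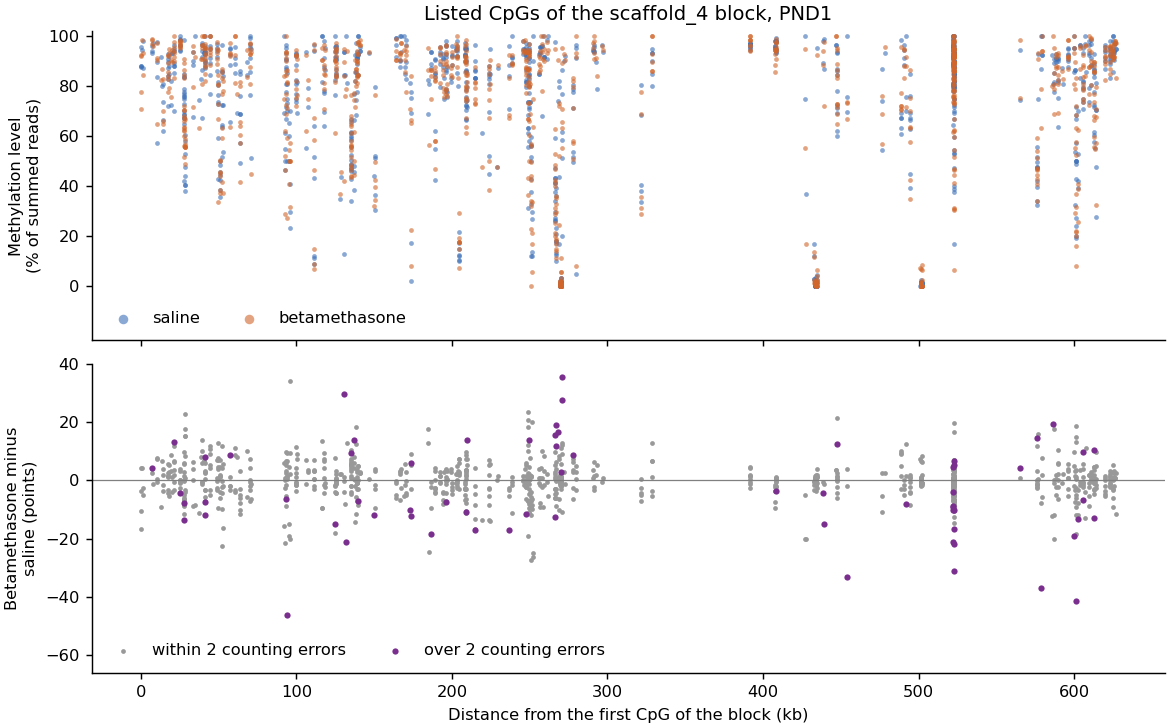
Methylation level after saline and betamethasone (upper panel, % of summed reads) and the difference in percentage points (lower panel) at the 1042 listed CpGs, by distance in kb from the first CpG of the block. Each point is 1 CpG, most levels lie above 80%, 3 clusters sit near 0%, and the 67 purple points differ by more than 2 counting errors.

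The low CpGs were concentrated in 3 of the 108 clusters, which held 83.9% of the 143 CpGs below 20%. The cluster from 44234542 to 44236993 had 60 listed CpGs, of which 49 formed an unbroken low core of 697 bp (44235714 to 44236410). In this core 46 of 7203 summed reads were methylated after saline (0.64%, Wilson 95% interval 0.48% to 0.85%) and 37 of 6797 after betamethasone (0.54%, 0.40% to 0.75%). Both treatments were thus nearly free of methylation there, and the intervals overlapped. At 36 of the 49 CpGs 1 treatment had no methylated read and the other had at least 1, with 18 to 222 reads per CpG and treatment. A count of 0 allows a level of up to 1.35% at the deepest of these CpGs and 16.7% at the shallowest. Such intervals and limits hold only counting error. A core's reads are summed over its CpGs, so a read that covers several CpGs is counted at each of them. The interval of a core takes these counts as separate reads and can be too narrow. Reads without molecular identifiers may also repeat a molecule, and animals add variation that the intervals and limits do not hold.

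The second low cluster, from 44398856 to 44401008, had 44 of its 45 CpGs in a low core of 1852 bp. Methylated reads made up 128 of 7545 after saline (1.70%, Wilson 95% interval 1.43% to 2.01%) and 120 of 7188 after betamethasone (1.67%, 1.40% to 1.99%). The core ended at 44400707. The next listed CpG, the 45th, at 44401008, stood at 95.1% after saline and 92.3% after betamethasone. No CpG is listed between them, so how the level changes there is not shown. All 27 CpGs of the third, from 44467038 to 44468547, were low, with 23 methylated reads of 3141 after saline (0.73%, 0.49% to 1.10%) and 16 of 2877 after betamethasone (0.56%, 0.34% to 0.90%). In all 3 cores the Wilson intervals of the treatments overlapped.

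Around the first core the levels were intermediate to high, and here the listed differences were larger. The 5 CpGs before it averaged 59.3% after saline and 62.4% after betamethasone, and the 6 after it 59.0% and 73.2%. Of those 6, the CpG at 44236949 had 7 methylated of 35 reads after saline (20%, Wilson 95% interval 10% to 35.9%) and 21 of 38 after betamethasone (55.3%, 39.7% to 69.9%), the largest gain among block CpGs with at least 20 reads in both treatments. The next largest, at 44236993, had 29 of 47 reads (61.7%, 47.4% to 74.2%) and 41 of 46 (89.1%, 77.0% to 95.3%). Between them lay 44236982, with 51.1% and 63.0%, and just before them 44236942, with 86.4% and 95.3%. The first CpG of the cluster, on the other flank at 44234542, stood at 74.1% of 85 saline reads and 90.6% of 96 betamethasone reads. Not all flanking CpGs went that way: 44236749 had 76.7% and 65.7%, 44234611 had 79.7% and 73.3%, and 44234613 had 82.2% and 72.0%. Some of these CpGs lie close enough to share reads.

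**Figure D2:**
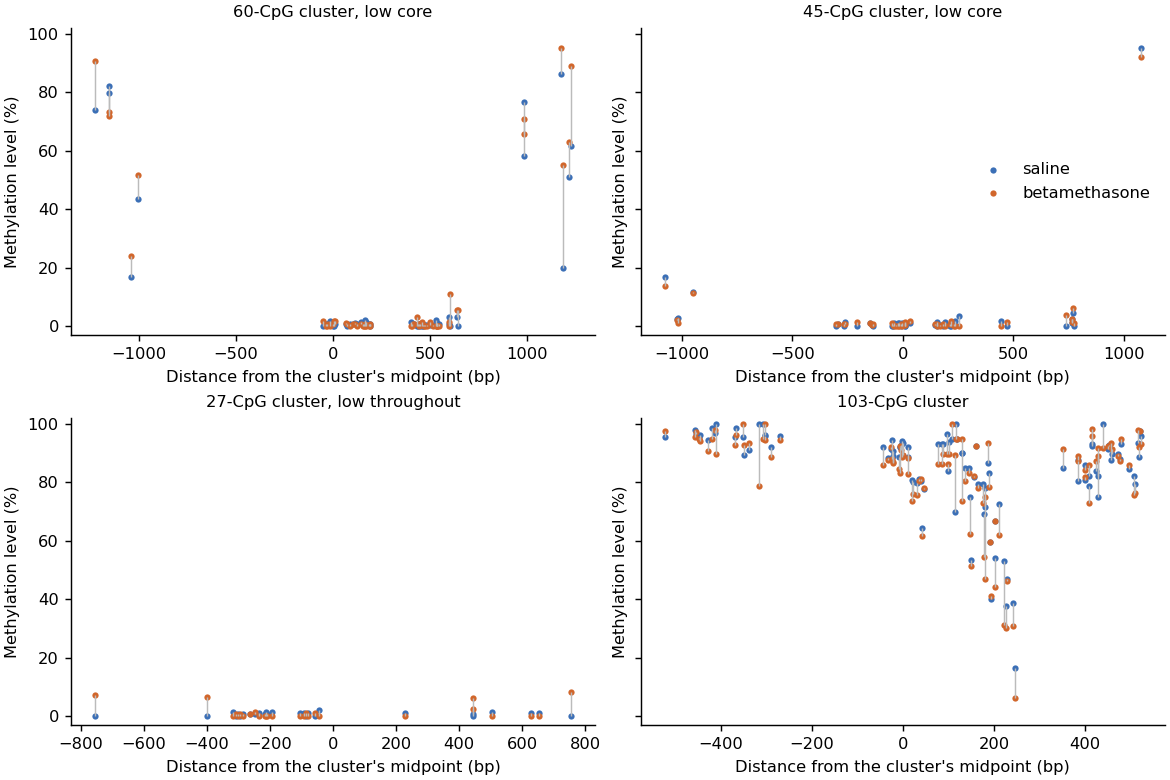
Methylation level (%) after saline and betamethasone in 4 clusters, by distance in bp from the midpoint of each cluster; grey lines join the 2 values of a CpG. The 60-CpG cluster has a core near 0% between methylated flanks, the 45-CpG and 27-CpG clusters reach at most 16.8% and 8.33% except for 1 CpG at 95.1% and 92.3%, and the 103-CpG cluster is high with a slope down to 16.5% and 6.15%.

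The cluster with the most listed CpGs was, in contrast, methylated. From 44487939 to 44488985, 103 listed CpGs within 1047 bp had a mean level of 84.6% under saline and of 82.4% under betamethasone. The mean difference was -2.17 points (SD 6.78 over CpGs). In all, 63 of them were lower and 39 higher after betamethasone. The cluster had 3 segments separated by at least 100 bp. The first, 44487939 to 44488191, averaged 96.1% and 94.0% over 20 CpGs. The middle segment, 44488418 to 44488709, averaged 79.1% and 75% over 56 CpGs, and 41 of those were lower after betamethasone and 14 higher. The last segment, 44488813 to 44488985, went the other way, with 87.5% and 89.2% over 27 CpGs, 18 of them higher. CpGs of a segment can share reads, so these counts of higher and lower CpGs need not be of separate measurements. The upper end of the middle segment held intermediate levels and the lowest CpG of the cluster, 44488709, which had 14 methylated of 85 reads after saline (16.5%, Wilson 95% interval 10.1% to 25.8%) and 4 of 65 after betamethasone (6.15%, 2.42% to 14.8%). The last segment, which starts 104 bp further on, had levels from 75.9% to 97.6% (average of the treatments).

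The 2 largest losses of the block at 20 or more reads were in that middle segment. At 44488643, 46 of 59 reads were methylated after saline (78.0%, Wilson 95% interval 65.9% to 86.6%) and 22 of 47 after betamethasone (46.8%, 33.3% to 60.8%). At 44488684 the counts were 45 of 85 (52.9%, 42.4% to 63.2%) and 19 of 61 (31.1%, 20.9% to 43.6%). When methylated reads and coverage were summed over the whole cluster, so that deeply read CpGs weigh more, the levels were 85.8% and 85.4%, which is -0.37 points. With each CpG weighted equally, the mean was -2.52 points over the 90 CpGs with at least 20 reads in both treatments and -1.83 over the 79 with at least 50. Summing reads also lets each treatment weight the CpGs by its own coverage, and the part of that was not tested.

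The remaining clusters among the most populated were mostly methylated and showed little mean difference. The 54 CpGs from 44213311 to 44217363, the longest cluster of the block at 4053 bp, had mean levels of 70.5% under saline and 69.5% under betamethasone (-0.97 points, SD 9.44), with 23 CpGs higher and 31 lower. The 27 CpGs from 44174203 to 44175593 stood at 83.8% in both treatments, with 14 higher and 13 lower. At the ends of the block, 4 CpGs from 43966052 to 43966113 had means of 89.9% and 83.3%, and 4 from 44592585 to 44592889 had 96.2% and 94.2%. Both end clusters were thus highly methylated.

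Other clusters passed from high to low within a short distance. From 44077309 to 44077657, 8 CpGs ranged from 7.73% to 96.6% (average of the treatments), with 96.3% after saline and 96.8% after betamethasone at 44077363 and 8.73% and 6.73% at 44077657. From 44168847 to 44170806, the first 10 of 17 CpGs lay between 80% and 100% in both treatments and the last 7 between 7.02% and 29.1%. In the 4 CpGs from 44245527 to 44245679 a single CpG at 44245663 stood at 4.76% of 21 reads and 7.69% of 13, beside neighbours above 91%. These steps in level were present in both treatments, and the mean differences of the 3 clusters were 1.55, 1.80 and 1.23 points. The 23 CpGs from 44232516 to 44232843, a cluster looked at after its values were seen because it lies 1699 bp before the first low cluster, had means of 33% under saline and 33.9% under betamethasone, with levels from 10.4% to 96.5% (average of the treatments). The 96.5% was at 1 position, 44232517. Its partner 1 bp away, 44232516, stood at 43.1% after saline and 52.8% after betamethasone.

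Differences in the block were small and went both ways. After betamethasone 504 CpGs were higher, 533 lower and 5 equal; 49.9% of all listed newborn CpGs were higher. The mean difference, betamethasone minus saline, was -0.41 points (SD 7.37 over CpGs), the median -0.14 points, and the quartiles were -3.40 and 3.09 points. The median size of a difference was 3.22 points, against a median counting error of 4.61 points, the counting error being the binomial standard error of a difference from the summed reads. A difference of more than 2 counting errors was found at 67 CpGs (6.43%, exact 95% interval 5.02% to 8.09%), 27 higher and 40 lower, where the share over all listed newborn CpGs was 8.81%. Over all listed newborn CpGs, 4.98% were higher and 3.83% lower by that margin. The exact interval takes the CpGs as read independently, although close CpGs can share reads and all come from the same animals. Differences of at least 10 points were found at 137 of the 1042 block CpGs, and at 632 of all 4622 listed newborn CpGs (13.7%). Those of at least 20 points were found at 27 block CpGs and at 158 of all listed (3.42%). In the block 226 CpGs (21.7%) differed by less than 1 point, against 24.1% over all listed.

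The size of a difference followed the read depth. In the 146 CpGs with 10 to 19 reads in the less deeply read treatment the median size was 7.50 points and 54 differed by at least 10 points. In the 121 CpGs with 200 or more reads it was 1.47 points and 3 differed by that much. The share beyond 2 counting errors was nearly even across depth, from 5.48% in the shallowest class to 6.61% in the deepest. The most deeply read CpGs of the block, 3 of them from 44374156 to 44374197 with 734 to 737 reads per treatment, differed by 0.27 to 1.09 points. One of them, 44374192, had 93.5% after saline (Wilson 95% interval 91.5% to 95.1%) and 94.6% after betamethasone (92.7% to 96.0%).

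**Figure D3:**
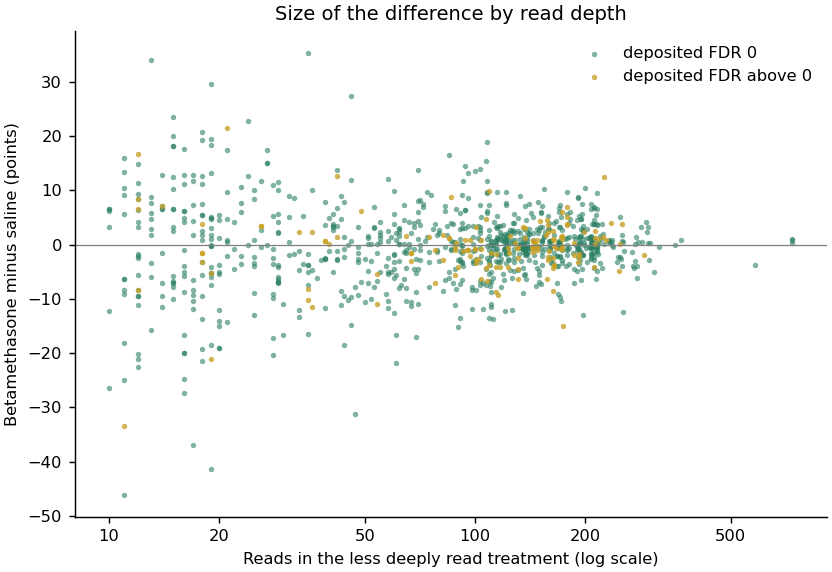
Difference between treatments (betamethasone minus saline, percentage points) against the reads of the less deeply read treatment (log axis) for the 1042 CpGs. Colour shows whether the FDR was 0 after rounding for the plot. Very small deposited values, such as 1e-05 at the first CpG, are therefore coloured as 0. The spread narrows with depth, from a median size of 7.50 points at 10 to 19 reads to 1.47 points at 200 or more, and both colours are centred near 0.

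By class of level, the 143 CpGs below 20% averaged 2.96% after saline and 3.05% after betamethasone, with a median size of difference of 0.93 points and 3 CpGs beyond 2 counting errors (2.10%; 4.4% of the other newborn CpGs at that level). The 323 intermediate CpGs averaged 59.6% and 59.2%, with a median size of 5.94 points and 29 beyond 2 counting errors, 15 higher and 14 lower (8.98%; 18.3% of the others, 121 higher and 57 lower). The 576 above 80% averaged 91.2% and 90.7%, and 35 were beyond 2 counting errors, 10 higher and 25 lower (6.08%; 7.19% of the others, 60 higher and 62 lower). No class had a mean difference of more than 0.54 points in size. No member had 0 methylated reads in both treatments or full methylation in both, and neither did any other listed newborn CpG.

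Among the 82 clusters with at least 3 CpGs and a median of 20 reads per CpG in both treatments, the mean difference ran from -10.5 to 5.20 points, and it was within 5 points of 0 in 74. The largest mean gain was at 44454545 to 44454586, with a mean of 71.1% under saline and 76.3% under betamethasone over 6 CpGs (SD of the difference 5.23). It was followed by 44004604 to 44005324, with 88% and 93% over 7 CpGs, and by 43987106 to 43987308 with 88.3% and 93.2% over 8. Next came 44010484 to 44010550 (90.4% and 95% over 7 CpGs) and 43976249 to 43976442 (82.1% and 85.9% over 4). All 5 gains were clusters with means above 70% in both treatments, and each held at least 1 CpG that was lower. Their counting errors, which take the CpGs of a cluster as read independently, ran from 2.0 to 2.54 points. The mean gains at 44010484 to 44010550 and at 43976249 to 43976442 were within 2 counting errors of 0.

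The largest mean loss among these 82 clusters rested on a single shallow CpG. At 44420063 to 44420166, the means of 3 CpGs were 81.7% and 71.2% (-10.5 points, SD 20). At 44420064 all 11 reads were methylated after saline and 8 of 12 after betamethasone, while 44420063 and 44420166, with 252 to 292 reads, differed by -1.90 and 3.84 points; without the shallow CpG the mean was 0.97 points. The other 4 leading losses were at 44180856 to 44180914 (87.0% and 78.7% over 7 CpGs), 44152504 to 44152570 (90.7% and 83.0% over 4), 44202602 to 44202839 (84.9% and 77.8% over 4) and 44029756 to 44029969 (70.2% and 64.4% over 7). In the second of these all 4 CpGs were lower, on 62 reads after saline and 44 after betamethasone at each CpG, and the last of them, 44152570, stood at 93.5% (Wilson 95% interval 84.6% to 97.5%) and 75% (60.6% to 85.4%). These 4 CpGs lie within 67 bp and can share reads, so they need not be separate measurements. In the third, too, all 4 were lower, by 2.72 to 17.0 points in size. Of the 91 clusters with at least 3 CpGs, 6 had all CpGs on the same side, 5 lower and 1 higher. These 6 held 3 or 4 CpGs each, which can share reads, and the one at 44392987 had only 12 to 20 reads per CpG. No share over the other listed newborn clusters is given here, so the count is not read as a trait of the block.

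Among single CpGs with at least 20 reads in both treatments, the other leading gains were at 43994199 (43.9% of 41 saline reads and 66.7% of 24 betamethasone reads), 44413374 (61.9% of 21 and 83.3% of 30) and 44232749. The latter was the best read of them, with 25 of 146 saline reads methylated (17.1%, Wilson 95% interval 11.9% to 24.1%) and 39 of 108 after betamethasone (36.1%, 27.7% to 45.5%). The other leading losses were at 44552902 (89.3% of 28 and 69.0% of 29), 44061442 (60% of 20 and 40.9% of 22) and 44566137, where all 20 saline reads and 34 of 42 betamethasone reads (81.0%) were methylated. The largest difference at any depth, -46.1 points at 44059790, came from 15 and 11 reads. These CpGs were picked for the size of the difference in the same reads, and their sizes are a description of these reads.

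In the authors' deposited table, whose newborn FDR has 5 decimals, the FDR was 0 at 862 of the 1042 CpGs (82.7%; 30.1% over all listed newborn CpGs, 56.0% of the 291 CpGs in the next dense block of scaffold_4). The authors' deposited table had 57 block CpGs with a first p-value under 0.05 (5.47%; 7.88% over all listed). Of the 862 CpGs with an FDR of 0 in the authors' deposited table, 382 (44.3%) had a first p-value over 0.5, and 178 differed by less than 1 point. The 49 nearly unmethylated CpGs of the first low core all had an FDR of 0 there, while none of the 27 of the third core did. An FDR of 0 was thus deposited for large and for very small differences alike.

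The FDR of the authors' deposited table lay at 0 in long runs, with shorter runs and single changes between them. It was 0 at 372 consecutive listed CpGs over 199.7 kb, from 43966113 to 44165770, at 298 over 225.7 kb, from 44174251 to 44399941, and at 139 over 49.4 kb, from 44542049 to 44591404. Within these runs the median first p-value was 0.44, 0.36 and 0.51 in the authors' deposited table. Between 44399943 and 44488498 the FDR reached 0.0497, its highest in the block. The share of CpGs beyond 2 counting errors was 6.26% where the FDR was 0 and 7.22% where it was above 0. The sources used here do not say how each deposited value was computed, and what set the FDR was not tested.

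**Figure D4:**
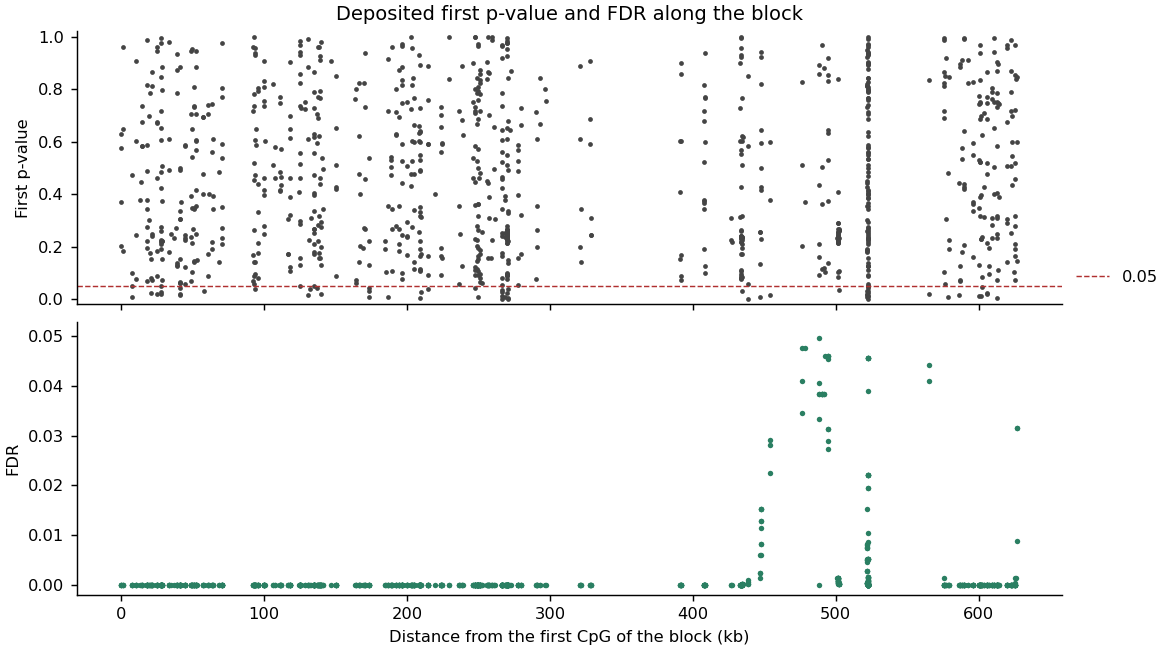
The authors' first p-value (upper panel, dashed line at 0.05) and FDR (lower panel) at each listed CpG, by distance in kb from the first CpG of the block. First p-values spread from 0 to 1 along the whole block, with 57 under 0.05, while the FDR lies at 0 in long runs and reaches 0.0497 in between.

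Neighbouring CpGs resembled each other in level and much less in their difference. Adjacent listed CpGs 2 to 10 bp apart differed in level by a median of 3.23 points over 224 pairs, those 51 to 200 bp apart by 8.52 points over 126 pairs, and those at least 1000 bp apart by 11.6 points over 107. The direction of the difference was the same in 57.8% of the pairs 2 to 10 bp apart, 52.6% of those 11 to 50 bp apart, 52.4% at 51 to 200 bp, 48.4% at over 200 and under 1000 bp and 48.1% beyond. Positions 1 bp apart, the closest, are left out of these classes. Of the pairs formed from them, 159 had a direction at both positions, and it was the same in 86. Close pairs can share reads, and the part of shared reads in these values was not tested.

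The level of a CpG went with how many listed CpGs surrounded it, but not in 1 direction. The 304 CpGs with at most 3 other listed CpGs within 200 bp averaged 78.5%. The 155 with 16 to 30 such neighbours averaged 34.6%, and 82 of them were below 20%. The 65 with 31 or more, which include the middle of the 103-CpG cluster, averaged 78.3%. The other CpGs below 20% were spread over the remaining classes: 17 had at most 3 neighbours, 21 had 4 to 7, 22 had 8 to 15 and 1 had 31 or more. Only listed CpGs were counted, so this is no measure of the CpG content of the sequence.

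In level, the block lay between the other dense groups of calls compared here, a newborn block and the largest juvenile block. A second block on scaffold_4, from 43658097 to 43745840 with 291 CpGs, had 70.1% of them above 80%. Below 20% were 0 of 291 (exact 95% interval 0% to 1.26%, which takes the CpGs as independent). All 3580 other newborn CpGs had 47.4% above 80% and 25.4% below 20%. The largest block of the juvenile table, on scaffold_53 from 6676673 to 6977785 with 923 CpGs, had 40.6% and 29.4%. Differences beyond 2 counting errors made up 9.50% of the other newborn CpGs, 5.84% of the second scaffold_4 block and 5.09% of the juvenile block, against the 6.43% given above. None of these differences between groups of CpGs was tested, since all newborn CpGs come from the same animals.

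**Figure D5:**
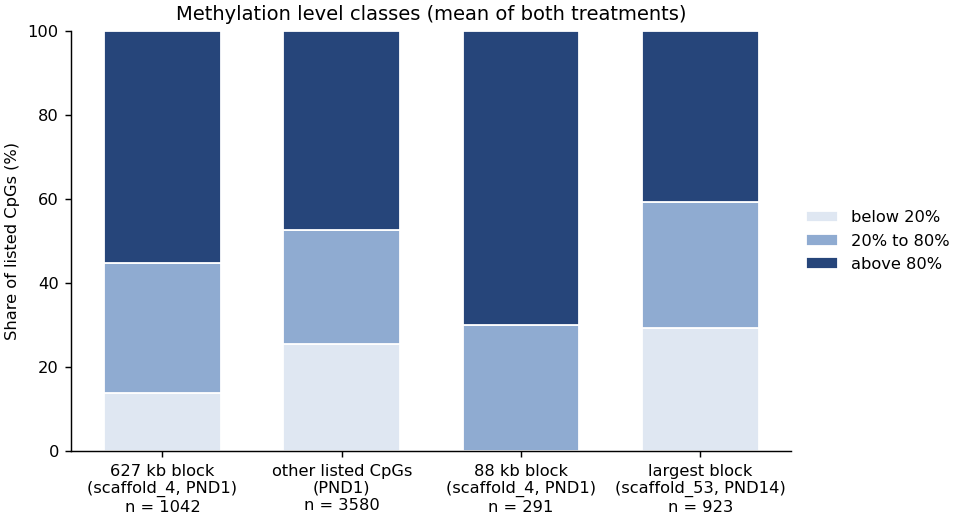
Share of listed CpGs (%) in 3 classes of methylation level, averaged over the treatments, in the block, in the other newborn CpGs and in 2 other dense blocks. In the 627 kb block 13.7% are below 20% and 55.3% above 80%, against 25.4% and 47.4% of the other newborn CpGs.

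The juvenile table listed 0 of its 2005 CpGs in this interval. It had 5 on scaffold_4, the nearest of them at 22081907, 21.9 Mb from the block. That table also holds called CpGs only, so an unlisted CpG may have been measured and not called, or not measured, and these cannot be told apart.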

How the data were processed

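RRBS libraries were made from 100 ng of DNA per animal, per the labels' protocols. Per the submitters' processing notes, the tools included Bismark 0.16.0, SAMtools 1.9, Bowtie2 2.3.4.3 and Trim Galore. The sources used here do not state how differential CpGs were called and filtered, or on which build. For each CpG and treatment the authors deposited the read coverage, the count of methylated reads and the methylated fraction, and for each CpG 2 p-values with an FDR. Fractions equalled methylated reads over coverage. Coverage summed over the block's CpGs was 120367 after saline and 120862 after betamethasone, with 10 to 737 reads per CpG and treatment.

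Levels, differences, binomial counting errors, Wilson and exact 95% intervals, clusters (1000 bp) and stretches (10000 bp) were computed from the counts with pandas 2.3.3, NumPy 2.4.6 and SciPy 1.17.1 (Python 3.11.15), figures were drawn with Matplotlib 3.10.9, and the functions were tested on simulated data. No test was made, because the block was chosen on the same contrast. Alternatives varied the weighting, the read minimum, the level bounds and the gap; their effect is in the closing section. Clusters named are the 5 with most CpGs, the 5 largest mean gains and losses (at least 3 CpGs and a median of 20 reads), the 3 with the widest spread of level and those at the ends; single CpGs are the 5 largest gains and losses at 20 reads or more and the 3 most deeply read. Members, lists and rules were chosen with earlier results of these data known.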

Additional observations from a re-analysis of the deposited data

How the results depend on the processing

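The mean difference of the block, -0.41 points, turned to 0.80 when reads were summed before dividing; the cause was not tested. With each CpG weighted by its reads in both treatments, a setting added after the data were seen, it was -0.12. With clusters counted once it was -0.99. It ranged from -0.21 to -0.41 with at least 20 or 50 reads, positions 1 bp apart merged, an FDR of 0 only, or, added later, without the 103-CpG cluster. The share above 80% methylated was 50.9% with at least 50 reads, and by construction 34.5% above 90% and 66.0% above 70%. The 108 clusters became 250 with a gap of 100 bp and 13 with 10000 bp. The shares of higher CpGs and of those beyond 2 counting errors stayed within their exact intervals under each alternative run. Those intervals take the CpGs as independent. The loss of -10.5 points at 44420063 to 44420166 became 0.071 points with summed reads and 0.97 with at least 20 or at least 50 reads, which leaves out its shallow CpG. Of 54 alternative values for 20 named clusters, 10 in 4 clusters changed sign. Leaving out animals was not run, because the tables hold no value per animal. No paired analysis was possible because the columns carry no replicate numbers. Depth limits the 146 CpGs with under 20 reads in a treatment.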

Other observations

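The table names no strand for the 161 pairs of listed positions 1 bp apart. Their levels differed by a median of 3.14 points, and the 2 positions differed in the same direction in 86 of the 159 pairs with a direction. At least 1 position was beyond 2 counting errors in 30 pairs, and both were in 0.

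In 10 of the pairs the levels, averaged over the treatments, differed by more than 20 points. Such a step need not hold in each treatment. Position 44232516 stood at 43.1% of 160 saline reads and 52.8% of 108 betamethasone reads, its partner 44232517 at 97.9% of 142 and 95% of 141. Position 43993943 stood at 83.7% of 135 reads and 86.4% of 125, against 41.9% of 74 and 51.6% of 91 at 43993944. The pair at 43993878 and 43993879 had 67.2% and 62.2% at the first position and 98.7% and 90.8% at the second. In these 3 pairs the step between positions was larger than the step between treatments. The position at 44059790, with the largest difference of the block at any depth, also has a listed partner: 44059791, with 69.8% of 189 saline reads and 71.3% of 181 betamethasone reads. This pair is among the 10, but 44059790 stood at 73.3% of 15 saline reads and 27.3% of 11 betamethasone reads. Its step thus lay in the betamethasone reads.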
